A study of Mus with 2 samples.

Results

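The regions described here are the spots of a control tumor section in which mitochondrially encoded genes took the largest share of the RNA. Members were chosen by that share alone: among the 2219 control spots with over 200 detected genes, the top 10% by the percentage of molecules assigned to genes whose symbol starts with mt- were taken, which gave 222 members and left 1997 other spots. Over both sections of the series 4169 spots were kept. A spot is a small area of tissue on a capture array, can hold several cells of different types, and is given no cell type here.

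The study examined how recombinant mouse interleukin 7 (rIL7) changes the tumor environment. CT26 cells, a mouse colon carcinoma line, were grown under the skin of female BALB/c mice aged 6 to 8 weeks. Control animals received PBS, and treated animals 10 µg of rIL7 into the peritoneum on days 11 and 13. The titles of both tumors give day 15 for collection, and frozen sections of 10 µm were placed on Visium slides, where polyadenylated RNA is captured and each molecule is counted once by its unique molecular identifier (UMI). Each group had 1 section, so no difference below has a replicate check, and no test was run. Intervals are exact 95% intervals for counting error only. The median array row and the median array column divided each section into 4 quadrants, which show spread within a section and are not replicates.

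Mitochondria carry a small genome of their own, whose 13 protein-coding genes encode core subunits of the respiratory chain complexes I, III and IV and of the ATP synthase. Most of their transcripts are polyadenylated and are therefore captured with nuclear-encoded messages. Cells with a high respiratory demand, such as muscle, hold much mitochondrial RNA, and a raised mitochondrial share is also a familiar sign of damaged cells or of cytoplasmic RNA loss in single-cell and spatial data. Which of these applied to the members was not tested.

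Mitochondrial genes took 0.592% of the UMIs of members and 0.190% of those of other spots. These values follow from the choice. The share per spot had a median of 0.490% in members (quartiles 0.424 and 0.633, highest 2.12) and of 0.167% in other spots. The limit fell in a continuous range, since the 5 members closest to it had shares of 0.372% to 0.3748% and the 5 spots just outside it 0.3679% to 0.3717%. A median member held 83.5 mitochondrial UMIs and a median other spot 15. Over all control spots, mitochondrial counts varied 15.3 times as much as binomial sampling at 1 common share would give.

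All 12 mitochondrial genes with at least 20 UMIs were higher in members, which the choice favours. Levels are UMIs of a gene per 1000000 non-mitochondrial UMIs (CPM) and do not account for gene length. The cytochrome c oxidase subunit gene mt-Co3 had 1231 CPM in members and 336 in other spots, a ratio of 3.67 (3.53 to 3.81). The ATP synthase gene mt-Atp6 had 1529 and 454 CPM, a ratio of 3.37 (3.25 to 3.48). For mt-Co1 the ratio was 3.19, for mt-Cytb of complex III 2.79 and for mt-Co2 2.69. Ratios of the better covered complex I genes were 2.74 for mt-Nd1, 2.29 for mt-Nd2, 3.08 for mt-Nd3, 2.59 for mt-Nd4 and 2.94 for mt-Nd5. The interval of mt-Co3 lay above that of mt-Nd2 (2.07 to 2.52). Both genes entered the choice, in which mt-Co3 with 4394 UMIs in members weighed more than mt-Nd2 with 576. A difference between genes can therefore not be told apart from the choice. The sparse genes mt-Nd4l, with 20 and 54 UMIs, and mt-Atp8, with 10 and 28, had ratios of 2.00 (1.14 to 3.4) and 1.93 (0.838 to 4.10). mt-Nd6 had 0 UMIs in members and 6 elsewhere, for which no ratio is given.

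To read mitochondrial RNA in genes that did not choose the spots, the top 10% was taken again with the complex I (mt-Nd) genes alone. In those 222 spots the remaining mitochondrial genes summed to 4849.7 CPM against 1814 elsewhere, a ratio of 2.67 (2.62 to 2.73). In the reverse direction, the mt-Nd genes had 715 and 285 CPM in and outside the spots chosen by the remaining genes, a ratio of 2.51 (2.40 to 2.63). Both readings share the UMI total of a spot with the choice. Of the spots chosen by mt-Nd genes 53.6% were also members, and of those chosen by the remaining genes 96.4%. Without the upper left quadrant, the ratio of 2.67 dropped to 1.53. Here and below, values without that quadrant come from the top 10% of the remaining spots, chosen again. That set includes spots that are not among the 222 members.

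Members were gathered in 1 area of the section. The upper left quadrant (low array rows and low columns) held 184 of the 222 members among its 627 spots, the upper right 29 among 431, the lower left 8 among 470 and the lower right 1 among 691. On the hexagonal grid, 67.4% (64.6 to 70.2) of the neighbours of members were members, against 3.17% of the neighbours of other spots and 10% of all spots. The largest connected patch held 161 members (72.5%) and spanned array rows 8 to 25 and columns 11 to 55. The second largest held 16, and 21 members had no member beside them. Of the 16 spots with a share over 1%, 14 lay in the largest patch.

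**Figure D1:**
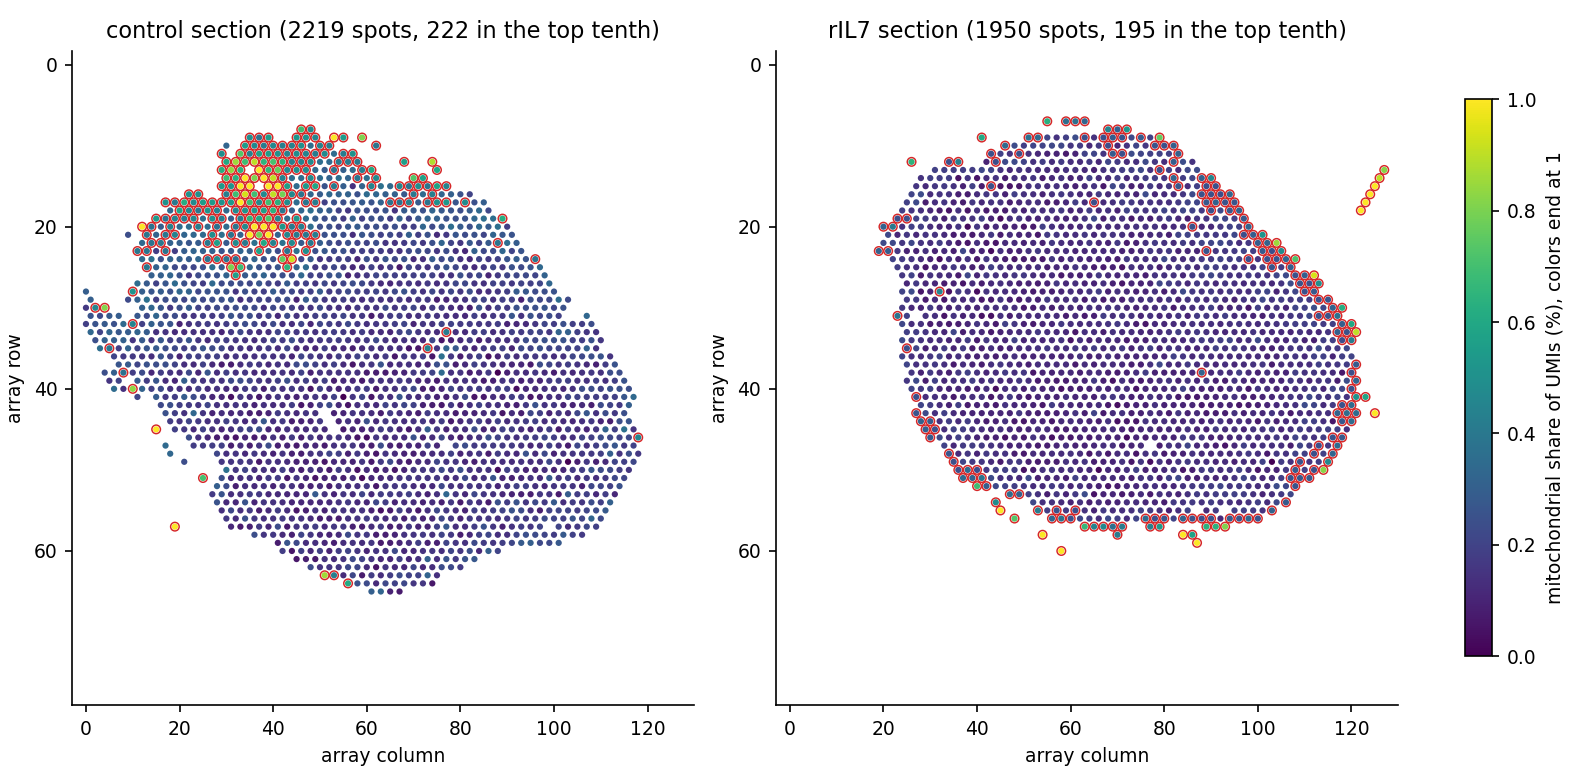
Mitochondrial share of UMIs in each spot (color, in percent, ending at 1) by array column and array row, in the control section on the left and the rIL7 section on the right; red rings mark the top 10% of each section. In the control section 161 of 222 ringed spots form 1 patch at the upper left, whereas in the rIL7 section 152 of the 195 ringed spots lie within 2 grid steps of the outline and 21 on fragments apart from the main piece.

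The share also stood above the section's level outside the members. The 185 other spots next to a member had 0.293% mitochondrial UMIs and the 1812 farther away 0.176%, a ratio of 1.67 (1.62 to 1.71). These spots were read after members had been removed, so their share is bounded by the limit. Spots 1 grid step from the largest patch had 0.309%, those 3 steps away 0.252%, those 6 steps away 0.213%, and those 7 or more steps away 0.174%. Members also lay nearer the outline of the tissue than other spots: 45.5% (38.8 to 52.3) were within 2 grid steps of it, against 15% (13.5 to 16.7) of other spots. Tissue enclosed 6 empty array positions in the section, and the 11 patch spots touching one had a share of 1.01%, against 0.589% in the rest of the patch, with median depths of 18846 and 17602 UMIs.

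Members were deeper than other spots. Their median was 17128 UMIs (quartiles 13223 and 20480.5) and that of other spots 9320 (7433 and 11572), a ratio of 1.84. Spots were ordered by depth into 10 classes of about equal size. Of the deepest class 57.7% were members, of the next deepest 18.5%, and of the shallowest 9.46%, whereas the 7 classes between held 0.901% to 4.95%. UMI depth is the denominator of the share that chose the members, so these values describe the choice and are not independent of it. The 161 patch members had a median of 17631 UMIs, the 61 other members had 13758, and the 8 members on fragments apart from the main piece had 4911.5. Other spots next to a member also exceeded those farther away, with medians of 12809 and 9094.5 UMIs.

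**Figure D2:**
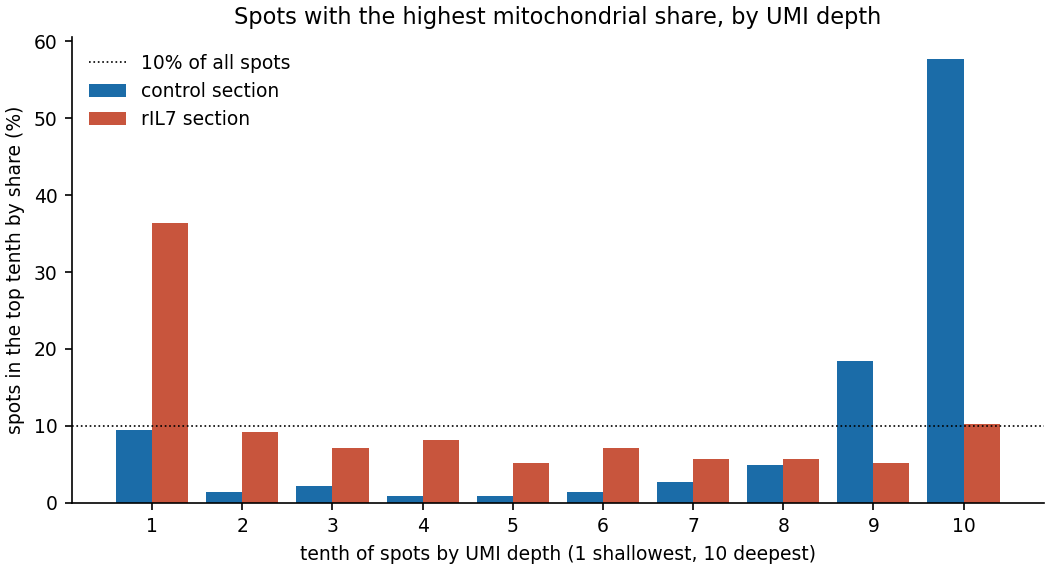
Percentage of spots in the top 10% by mitochondrial share, for 10 classes of spots ordered by UMI depth from shallowest (1) to deepest (10), in the control (blue) and rIL7 (red) sections; the dotted line marks 10%. In the control section 57.7% of the deepest class were members, and in the rIL7 section 36.4% of the shallowest class were chosen.

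At equal depth, members had fewer detected genes. The median member had 5159.5 detected genes and the median other spot 3890. With every spot thinned to 5000 UMIs, which left out 18 members and 111 other spots, the medians were 2445 genes (quartiles 2367 and 2501) in members and 2594 (2542 and 2637) in other spots. The ranges between quartiles did not overlap.

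Skeletal muscle genes did not mark the members, although muscle is rich in mitochondria. Acta1, the skeletal muscle actin gene, lies on chromosome 8 (123891758 to 123894775, GRCm38). Members held 17 of its UMIs and other spots 593, or 4.76 and 30.7 CPM, which is a ratio of 0.155 (0.0898 to 0.251). Ckm, the muscle creatine kinase gene, lies on chromosome 7 (19411094 to 19421583), and its 3 and 41 UMIs gave a ratio of 0.396 (0.0784 to 1.24). At least 1 UMI of Acta1 or Ckm was seen in 19 members, 8.56% (5.23 to 13), and in 343 other spots, 17.2% (15.5 to 18.9). No member held more than 2 such UMIs.

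The whole muscle list of 25 genes gave 78.1 CPM in members and 200.2 in other spots, a log2 ratio of -1.36 (-1.54 to -1.18), and 20 of its 21 genes with at least 20 UMIs had a ratio below 1. All 3 of its genes that reached the level tested below passed as lower. Against other spots of like depth, with at least the lower quartile of the members' UMIs, the log2 ratio was -0.39. Read from the muscle side, the 10% of spots with the largest muscle share had 0.15% mitochondrial UMIs, and 3 of these 222 spots were members. When spots with a UMI of Acta1 or Ckm were left out and members chosen again, the macrophage list had a log2 ratio of 0.61 and the ribosomal list one of 0.31, close to the 0.60 and 0.32 of the full set described below.

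Outside the mitochondrial genes, few genes were higher in members and many were lower. Of 7590 genes with at least 20 CPM in the section, 430 (5.67%) had a ratio at least 25% above 1 with a counting interval above 1 and are called higher, and 1883 (24.8%) had a ratio of at most 0.8 with an interval below 1 and are called lower. The balance depended on the scaling. Of the genes past this size rule 18.6% were higher with plain totals, against 45.6% with TMM factors (845 higher and 1009 lower) and 48.1% with median-of-ratios factors (890 and 962). These factors moved every log2 ratio up by 0.12 and 0.13. With plain totals the median log2 ratio of the 7590 genes was -0.15, with 5289 ratios below 1 and 2301 above. The same direction in all 4 quadrants was held by 66 of the higher and 912 of the lower genes, a requirement in which the lower right quadrant counts through its only member. A gene without a UMI in that member could pass as lower but not as higher, so the requirement favours lower genes. The counts of 66 and 912 can therefore not be set against each other. Without the upper left quadrant, 272 genes were higher and 607 lower.

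The genes with the highest ratios under that requirement were mostly ribosomal and macrophage genes. Rps27 on chromosome 3 (90212667 to 90213648), a small ribosomal subunit protein gene, reached 1529 CPM in members and 740.0 in other spots, a ratio of 2.07 (2.00 to 2.13). Within the upper left quadrant it had 1517 and 844 CPM, and its ratios in the remaining quadrants ran from 1.73 to 2.47. For Rpl39 of the large subunit, on chromosome X (37082518 to 37085222), the levels were 3399 and 1734 CPM and the ratio was 1.96 (1.92 to 2.00). Rps21, Rps29 and Rpl32 had ratios of 1.69, 1.61 and 1.60. Ribosomal protein genes have many near-identical pseudogenes, so their counts are uncertain to the extent that reads could be split among copies.

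Among the genes of that group without an Rpl or Rps symbol, the chemokine gene Ccl8 on chromosome 11 (82115185 to 82116799) reached 187 against 96.1 CPM, and its ratio was 1.94 (1.77 to 2.12). The complement gene C1qc, typical of macrophages, had a ratio of 1.57 (1.5 to 1.64). Gm42418, which overlaps a ribosomal RNA repeat, had 854 and 459 CPM, a ratio of 1.86 (1.78 to 1.94), and the predicted gene Gm10076 one of 2.05 (1.90 to 2.22). Chosen after their values were seen, Plbd1 and Selenop had the largest ratios without the requirement on quadrants, at 2.32 (1.94 to 2.78) and 2.14 (1.91 to 2.39). Within the upper left quadrant their ratios were 1.39 and 1.36.

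The lowest ratios under the same requirement belonged to muscle genes and to a mixed set of others. Beside Acta1, the myosin light chain genes Myl4 and Mylpf had ratios of 0.163 (0.0957 to 0.259) and 0.282 (0.188 to 0.407). The stress-induced chromatin protein gene Nupr1 on chromosome 7 (126623246 to 126625470) reached 198 CPM in members and 435 in other spots, which is a ratio of 0.456 (0.422 to 0.492), and within the upper left quadrant 201 and 330.4 CPM. Gm26532 had 102 and 253 CPM, a ratio of 0.404 (0.362 to 0.450). The remaining genes of the group, Zc3h8, Mir17hg (the host of the miR-17 cluster), the DNA helicase gene Pif1, Leng9 and the small heat shock protein gene Cryab, had ratios between 0.329 and 0.469. In the quadrants with 8 members or 1 member these sparse genes often had 0 UMIs, so that their direction there carried little information.

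**Figure D3:**
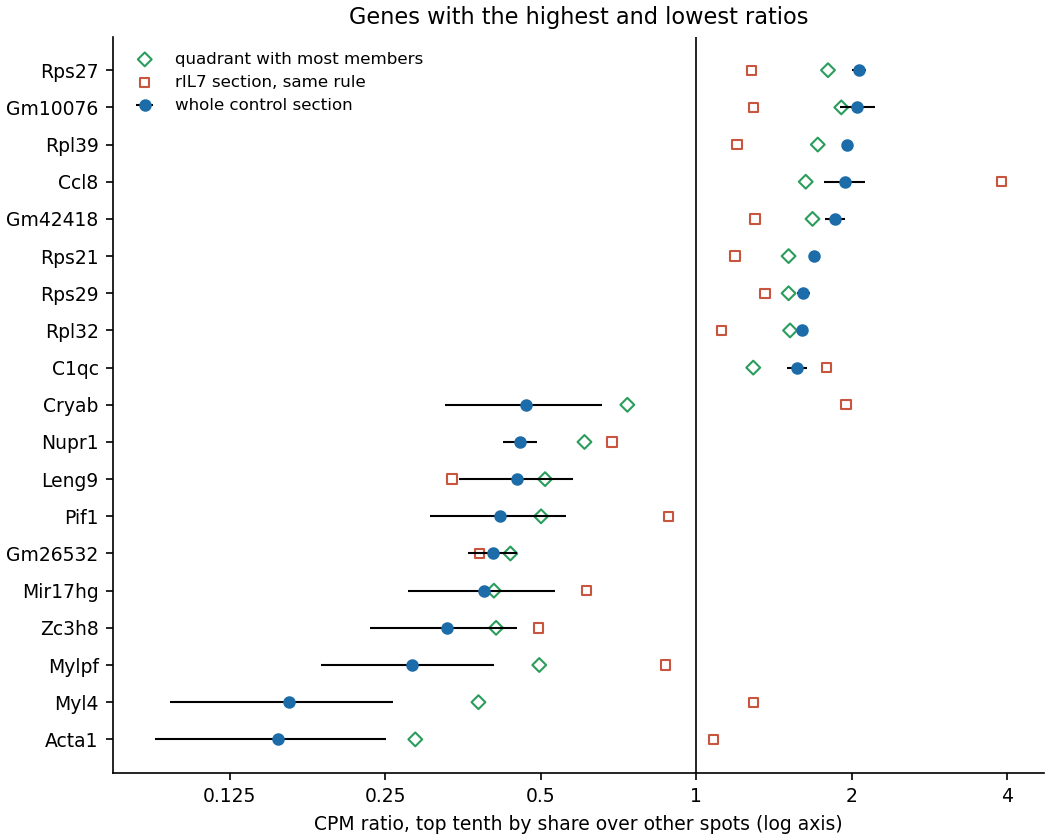
CPM ratio of members over other spots (log axis) for 9 of the 10 genes with the highest ratios and the 10 with the lowest; filled circles show the whole control section with exact 95% counting intervals, open diamonds the upper left quadrant alone and open squares the rIL7 section under the same rule. In the upper left quadrant the 9 high genes shown had ratios from 1.29 for C1qc to 1.91 for Gm10076, where a ratio above 1 was a condition of their choice.

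Genes of the cytosolic ribosome, which translates nuclear-encoded messages, were higher as a group. The 32 listed genes summed to 103399 CPM in members and 83114 in other spots, a log2 ratio of 0.32 (0.31 to 0.32), with a median of 0.39 over its genes. Of the 32, 20 passed the size rule as higher and 1, Rpl4, as lower, beside 5.67% and 24.8% of all genes. Rplp1 had 6231 and 4058 CPM, a ratio of 1.54 (1.51 to 1.56), and Rps28 2269 and 1494 CPM, a ratio of 1.52 (1.48 to 1.56). Rpl4 had 2658 and 3622 CPM, a ratio of 0.734 (0.718 to 0.75), so the group did not move as a whole. The level was 81203 CPM in the 10% of spots with the lowest mitochondrial share and 89558 CPM in the next to highest 10%. In 3 classes of 74 members by rising share it was 96367, 99122 and 113937 CPM, and 123267 CPM in the 16 spots over 1%.

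The ribosomal list was read again among nearer and deeper spots. Within the upper left quadrant the log2 ratio was 0.32, against other spots of like depth it was 0.21, for members outside the largest patch it was 0.30, and without the upper left quadrant it was 0.17. Around the patch the level dropped from 103678 CPM inside to 91748 at 1 step, 85759.7 at 2 steps and 80235 at 5 steps. Short genes were common among those higher in members: of the 424 matched to a RefSeq gene, 25% spanned under 5 kb, against 11.8% of the 7514 matched among all tested and 9.78% of the 1860 matched that were lower. Ribosomal protein genes, most of them short, were part of this, with 45 of 84 tested Rpl and Rps symbols past the size rule as higher.

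Macrophage genes were also higher as a group. The list of 14 had 7294 CPM in members and 4800.1 in other spots, a log2 ratio of 0.60 (0.58 to 0.62), the median of its genes was 0.50, and 10 of its 13 tested genes passed as higher and 0 as lower. The complement gene C1qa had 903 and 491 CPM, a ratio of 1.84 (1.76 to 1.91). The macrophage surface receptor gene Adgre1 (F4/80) had 74.2 and 41.4 CPM, a ratio of 1.79 (1.55 to 2.06), and the lipid carrier gene Apoe 1911 and 1175 CPM, a ratio of 1.63 (1.58 to 1.67). Cd68, a lysosomal marker of the lineage, had 151 and 146 CPM, a ratio of 1.03 (0.937 to 1.13), and Cd163 one of 0.840 (0.528 to 1.29). In a spot, more cells of a type and more of its RNA per cell cannot be told apart.

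Genes of MHC class II, which presents antigen to helper T cells, gave 3975 and 2659 CPM, a log2 ratio of 0.58 (0.55 to 0.61), with all 6 tested genes higher and a median of 0.54 over its 7 genes. H2-Aa had 588 CPM in members and 313 in other spots, a ratio of 1.88 (1.79 to 1.97), and H2-Eb1 538 and 311 CPM, a ratio of 1.73 (1.64 to 1.82). The invariant chain gene Cd74 had a ratio of 1.37 (1.33 to 1.40), and the regulator gene Ciita, with 61 and 359 UMIs, one of 0.920 (0.689 to 1.21).

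Within the quadrant that held most members these differences were smaller. Within the upper left quadrant the MHC class II list had a log2 ratio of 0.01 and the macrophage list one of 0.29. There Cd74 had 1834 CPM in members and 1949.6 in other spots, H2-Ab1 832 and 837, and C1qa 929 and 639. MHC class II genes stood at 4179 CPM in the largest patch, at 4504 CPM 1 step outside it and at 2354 CPM at 7 or more steps, whereas macrophage genes dropped from 7599 to 7258 and 4432 CPM. Against spots of like depth MHC class II genes had a log2 ratio of 0.27 and macrophage genes one of 0.34, and without the upper left quadrant they had 0.42 and 0.31.

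**Figure D4:**
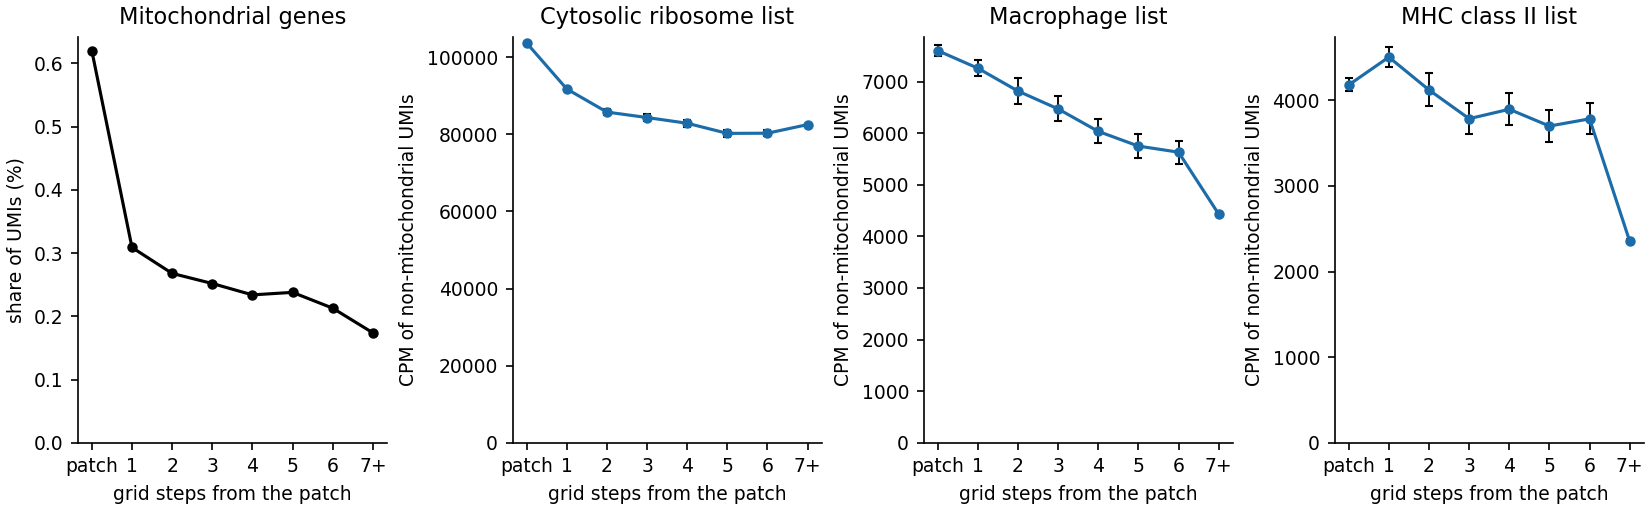
Levels in the largest patch of members (161 spots) and in other control spots by grid steps from it; the panels show the mitochondrial share of UMIs (percent) and the summed levels (CPM, with exact 95% counting intervals) of the cytosolic ribosome, macrophage and MHC class II lists. The mitochondrial share, which the choice caps outside the members, and the ribosomal level drop most at the first step, from 0.620% to 0.309% and from 103678 to 91748 CPM, while MHC class II genes are at 4179 CPM in the patch and at 4504 CPM beside it.

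Nuclear genes of the respiratory chain, which did not enter the choice, were slightly higher in members, apart from those of complex II. The 37 complex I genes encoded in the nucleus had 7761 CPM in members and 7120.0 in other spots, a log2 ratio of 0.12 (0.11 to 0.14). The median over these genes was 0.13, beside -0.15 over all tested genes. Of the 37, 5 passed as higher and 0 as lower, beside 5.67% and 24.8% of all tested genes. Ndufc2 had 142 and 98.0 CPM, a ratio of 1.45 (1.31 to 1.60), and Ndufa12 a ratio of 1.36 (1.24 to 1.49), while Ndufa3 had 399 and 460.2 CPM, a ratio of 0.868 (0.820 to 0.918). Log2 ratios were 0.12 for complex III, 0.11 for complex IV and 0.17 for complex V, where 2 of 14 genes passed. Of the latter, Atp5e had 636 and 435 CPM, a ratio of 1.46 (1.39 to 1.53). Complex II, which has no mitochondrially encoded subunit, had a log2 ratio of -0.12, which turned to 0.00 with TMM and 0.01 with median-of-ratios factors. With TMM factors complexes I, III, IV and V had log2 ratios of 0.24, 0.24, 0.22 and 0.29. Against spots of like depth these complexes had 0.08, 0.06, 0.03 and 0.10, and without the upper left quadrant 0.06, 0.09, 0.06 and 0.11. Within that quadrant they had 0.12, 0.14, 0.11 and 0.17. The median over the complex III genes was 0.02, with 5 ratios above 1 and 4 below.

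The genes that copy, transcribe and process mitochondrial DNA and RNA were lower. The list had 813 CPM in members and 964 in other spots, a log2 ratio of -0.25 (-0.30 to -0.19). The median over its 24 genes was -0.23, beside -0.15 over all tested genes. Of its 19 tested genes 8 were lower and 0 higher, beside 24.8% and 5.67% of all tested genes. Polrmt, the mitochondrial RNA polymerase gene, had 29.1 and 41.3 CPM, a ratio of 0.704 (0.569 to 0.865). Mterf4 had 19.0 and 35.1 CPM, a ratio of 0.542 (0.416 to 0.696), and Tfam, the packaging and transcription factor gene, 33.6 and 30.6 CPM, a ratio of 1.1 (0.894 to 1.34). Within the upper left quadrant the list had a log2 ratio of -0.22. It was -0.13 with TMM factors, -0.12 with median-of-ratios factors and -0.13 without that quadrant. Mitochondrial ribosomal proteins had 4635 and 4645 CPM, and enzymes of the TCA cycle a log2 ratio of -0.19 (-0.23 to -0.15) with 4 of 16 genes lower and a median of -0.16, close to the 24.8% and the median of -0.15 of all tested genes.

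Genes of the ATF4 response and of proliferation were lower in members, whereas heat shock genes, with a log2 ratio of -0.02 (-0.05 to 0.00), had 0 of 8 tested genes past the rule in either direction. The ATF4 list, genes of the amino acid and mitochondrial stress response, had 1601 CPM in members and 2031 in other spots, a log2 ratio of -0.34 (-0.38 to -0.30) and a median of -0.39 over its genes, and 6 of 13 tested genes passed as lower and 0 as higher. Atf4 itself had 254 and 377 CPM, a ratio of 0.674 (0.628 to 0.722), and the folate enzyme gene Mthfd2 35.0 and 57.4 CPM, a ratio of 0.610 (0.503 to 0.734). The proliferation list had a log2 ratio of -0.30 (-0.34 to -0.26), a median of -0.32, and 10 of 20 genes lower and 0 higher, among them Top2a at 0.724 (0.659 to 0.795) and Mki67 at 0.736 (0.662 to 0.816). Genes of p53 and apoptosis had a log2 ratio of -0.22, but their median was -0.10 and 3 of 11 were lower, a share near the 24.8% of all genes. With TMM factors the log2 ratio was -0.22 for ATF4, -0.18 for proliferation and -0.10 for p53 and apoptosis. In the same order, the 3 lists had -0.20, -0.16 and -0.13 within the upper left quadrant, and -0.15, -0.22 and -0.10 without it. The nuclear RNA Neat1 had 593 CPM in members and 1033 in other spots, a ratio of 0.574 (0.549 to 0.600), and within the upper left quadrant 587 and 1018 CPM. Nuclear-retained RNA as a list did not share this difference. Its log2 ratio was -0.06 (-0.10 to -0.02), and of 4 tested genes 1 was higher and 2 were lower. With TMM factors the list had 0.06, and against spots of like depth 0.11.

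Marker lists of other cells gave mixed values. The CT26 markers Rpl39l and Baiap2l1 together had 1319.6 CPM in members and 1292 in other spots, a log2 ratio of 0.03 (-0.01 to 0.08). The hypoxia list had a log2 ratio of 0.17 (0.13 to 0.21), with P4ha1 and Bnip3 higher at 1.39 and 1.31 and Ddit4 lower at 0.729. Fibroblast genes had a log2 ratio of 0.18, with Dcn at 1.61 and Col3a1 at 1.35, and it was 0.00 within the upper left quadrant. The NK cell list had a log2 ratio of 0.45 (0.31 to 0.59), and it was 0.15 within the upper left quadrant. The granzyme genes Gzma and Gzmb, its 2 tested genes, had ratios of 1.51 and 1.48. They gave 185 and 107 of the 535 UMIs of the list in members. The receptor gene Ncr1 had a ratio of 1.21 (0.806 to 1.78). T cell genes had a log2 ratio of -0.23 (-0.37 to -0.10) with 143 and 168 CPM, and 0 of 1 tested genes passed in either direction. Trbc2 gave 283 of the 511 UMIs of that list in members and 1910 of the 3249 in other spots. For members chosen within depth classes the T cell list had -0.04, and in the interior alone -0.09. Haemoglobin and other red blood cell genes summed to 35 UMIs in members and 53 elsewhere, a log2 ratio of 1.84 (1.18 to 2.48), but 14 of the 35 came from 1 member, and without the upper left quadrant it was -0.75. Of 37 lists apart from the mitochondrially encoded genes, 12 had intervals above 0 and 18 below.

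The same rule gave another picture in the rIL7 section, where 195 of 1950 spots were taken at a share of at least 0.231%. Their share was 0.362% against 0.134% in the other 1755 spots. Most lay near the outline, with 77.9% (71.5 to 83.6) within 2 grid steps of it against 10.1% of other spots, and were spread over the quadrants as 28, 77, 34 and 56. All 21 spots on fragments apart from the main piece were among them, and the largest connected patch held 54. They were shallower than other spots, with median depths of 9765 and 13097 UMIs, whereas control members were deeper than theirs.

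In the rIL7 section 772 of 7620 tested genes (10.1%) passed the size rule as higher and 1433 (18.8%) as lower. Of 7349 genes tested in both sections, 421 were higher in control members, 684 in the rIL7 spots and 175 in both, which is 41.6% of the former and 25.6% of the latter. Macrophage and MHC class II genes were higher in both, with log2 ratios of 0.98 and 1.58 in the rIL7 section beside 0.60 and 0.58. Genes for mitochondrial DNA and RNA upkeep were lower in both, at -0.22 in the rIL7 and -0.25 in the control section, beside medians of -0.09 and -0.15 over all tested genes. Cytosolic ribosome genes had a log2 ratio of -0.03 in the rIL7 section, with Rps27 at 1.28 and Rpl4 at 0.783. T cell genes had one of 1.23 and B and plasma cell genes one of 2.87, beside -0.23 and 0.26 in the control section. The control value of B and plasma cell genes had an interval across 0 (-0.02 to 0.54) and was -0.16 without the upper left quadrant and -0.87 for members outside the largest patch. Differences between the sections were not tested, and treatment, animal and section cannot be told apart.

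**Figure D5:**
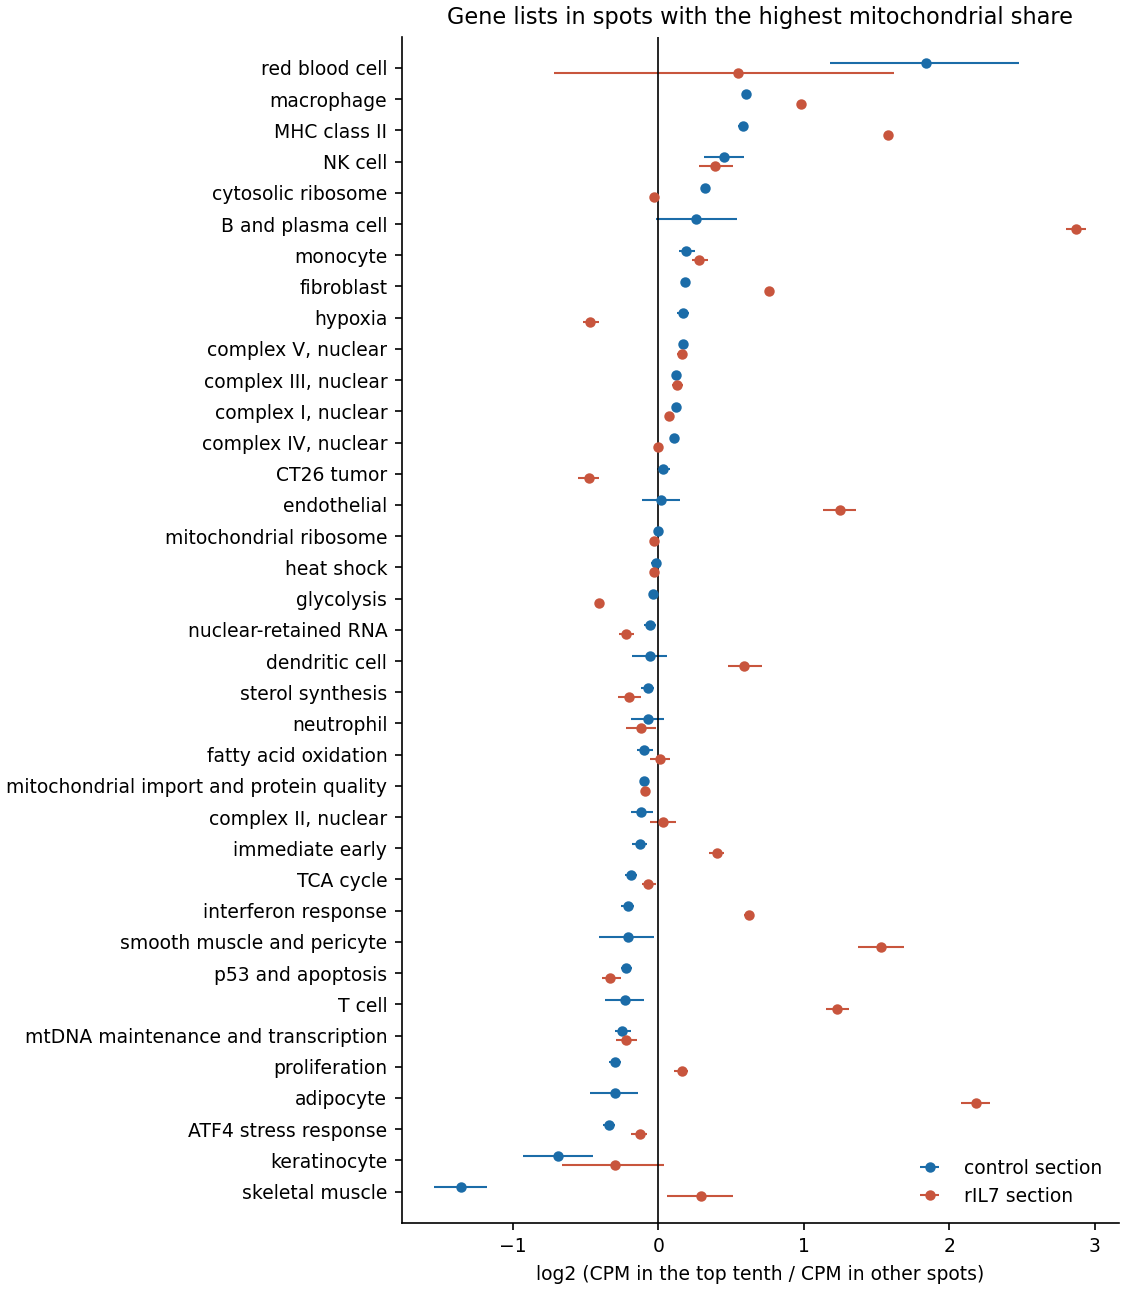
Log2 ratio of summed CPM, top 10% by mitochondrial share over other spots, for 37 gene lists in the control (blue) and rIL7 (red) sections, with exact 95% counting intervals. Macrophage and MHC class II lists lie above 0 in both sections, the cytosolic ribosome list is at 0.32 (control) and -0.03 (rIL7), and skeletal muscle is at -1.36 and 0.29.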

How the data were processed

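Visium spatial RNA counts from 2 tumor sections were used. The authors counted genes per spot with Space Ranger 1.1.0 and the mm10 (GRCm38) mouse reference, as the submitters' processing notes name them, and what was deposited are unnormalized counts of UMIs for each gene in each spot, with array positions. Image files were not used. Spots over tissue with over 200 genes were kept (2219 of 2221 in the control and 1950 of 1951 in the rIL7 section), which hold 22951678 and 25729233 UMIs. Of the position barcodes 1702 occur in both sections, since they mark array positions.

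For each gene, UMIs were added up over members and over other spots and set against the non-mitochondrial total of each. The size rule required 20 CPM in the section, a ratio at least 25% above 1 or at most 0.8, and an exact 95% interval (conditional binomial for ratios, Clopper-Pearson for shares) beyond 1. Lists were summed, and single genes were judged within them; list medians used genes with at least 20 UMIs. Named genes were the mitochondrial genes, Acta1, Ckm, the 10 highest and 10 lowest ratios past the size rule with 1 direction in all quadrants, and members of described lists. Of the 10 highest, 1 gene is not reported here. Members and lists were chosen with earlier results of these data known. Gene positions came from RefSeq on GRCm38, matched by Ensembl identifier or symbol for 7514 of 7590 tested genes (99%). Alternatives changed the choice of spots, the scaling (TMM in edgeR 4.0.16, median-of-ratios in DESeq2 1.42.0) and the thresholds. Calculations used Python 3.11.15, numpy 2.4.6 and scipy 1.17.1, and the size rule was tested on simulated counts.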

Additional observations from a re-analysis of the deposited data

Results flagged for a closer look

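For 9 gene lists the top 10% of spots by mitochondrial share differed from other spots in opposite directions in the control and rIL7 sections, with both counting intervals clear of 0. In no case was the difference between the sections tested, and each section is 1 sample. Lower in control members and higher in the rIL7 spots were skeletal muscle (log2 ratios of -1.36 and 0.29), adipocyte (-0.30 and 2.18), smooth muscle and pericyte (-0.21 and 1.53), T cell (-0.23 and 1.23), proliferation (-0.30 and 0.16), interferon response (-0.21 and 0.62) and immediate early genes (-0.13 and 0.40). Higher in control members and lower in the rIL7 spots were hypoxia (0.17 and -0.47) and cytosolic ribosome genes (0.32 and -0.03). The control sign was not stable for all of them: interferon response genes had 0.08 when members were chosen within depth classes and 0.03 in the upper left quadrant alone, and smooth muscle and pericyte genes had 0.03 in that quadrant and -0.01 against spots of like depth. The control adipocyte value rested mostly on Fabp4, with 305 of the 339 UMIs in members, and the list median was 0.05. Muscle genes were sparse in the rIL7 section, where Acta1 had 2 and 21 UMIs and 0 of 1 tested muscle genes passed as higher. Control hypoxia genes had 0.02 when members were chosen by mt-Nd genes, 0.04 in the interior alone and 0.05 within depth classes. Control T cell genes had -0.04 within depth classes and -0.09 in the interior alone. The ribosomal value of -0.03 in the rIL7 section stood beside a median of -0.09 over all genes tested there. Of the 32 ribosomal genes, 2 passed as higher and 3 as lower in that section. Of the chosen spots, 45.5% of control and 77.9% of rIL7 spots lay within 2 grid steps of the outline, and the part of position in these values was not tested.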

How the results depend on the processing

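Each list value below is a log2 ratio of members over other spots, and the ratio of mitochondrial genes is that of the genes that did not choose the spots. With the top 5% of spots, the share of neighbours that were members was 57.1%, macrophage genes had 0.65, ribosomal genes 0.38, nuclear-retained RNA 0.02 in place of -0.06, and the mitochondrial ratio was 3.26. With the top 20% the depth ratio was 1.58, the neighbour share 72.5%, the lower genes 1169, macrophage 0.58, MHC class II 0.61, ribosome 0.25 and the mitochondrial ratio 2.17. Members chosen within each of 10 depth classes had a depth ratio of 1, which the construction sets, a neighbour share of 27.6%, 173 higher and 563 lower genes, muscle -0.84, macrophage 0.36, MHC class II 0.47, ribosome 0.17 and a mitochondrial ratio of 2.04. There complex II (0.02), keratinocyte (1.05), interferon response (0.08) and nuclear-retained RNA (0.15) reversed. Members chosen by mt-Nd genes had a depth ratio of 1.26, an edge share of 33.8%, a neighbour share of 33.2%, 275 higher and 1181 lower genes, muscle -1.02, macrophage 0.52, MHC class II 0.53 and ribosome 0.24, and complex II and nuclear-retained RNA reversed to 0.01. Thinned to 5000 UMIs, the neighbour share was 62.6%, the lower genes 1223, MHC class II 0.62, ribosome 0.29 and the mitochondrial ratio 2.17. In the interior alone the neighbour share was 70.3%, macrophage 0.72, MHC class II 0.81, ribosome 0.29 and the mitochondrial ratio 2.81. Without spots holding Acta1 or Ckm, muscle was -0.67 and the mitochondrial ratio 2.58. With spots weighted equally, MHC class II was 0.61, ribosome 0.30, the mitochondrial ratio 2.4 and nuclear-retained RNA reversed to 0.01.

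TMM scaling gave 845 higher and 1009 lower genes, 25 of 37 lists above 0 in place of 15, macrophage 0.72, MHC class II 0.70, ribosome 0.43 and a mitochondrial ratio of 2.9. Median-of-ratios gave 890 and 962 genes, 25 lists, macrophage 0.73, MHC class II 0.71, ribosome 0.44 and 2.92. Under TMM and median-of-ratios, respectively, complex II (0.00 and 0.01), import and protein quality (0.02 and 0.03), fatty acid oxidation (0.02 and 0.03), glycolysis (0.08 and 0.09), sterol synthesis (0.05 and 0.05) and nuclear-retained RNA (0.06 and 0.07) reversed. Totals without ribosomal protein and haemoglobin genes gave 712 higher genes, macrophage 0.68, MHC class II 0.66, ribosome 0.39 and a mitochondrial ratio of 2.78, and reversed glycolysis (0.03), sterol synthesis (0.00) and nuclear-retained RNA (0.02). Without a CPM minimum 682 genes were higher. At 1.5-fold 73 were higher and 398 lower, and with 1 direction in all quadrants 66 and 912. The latter requirement favours lower genes, since the lower right quadrant has 1 member.

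Leaving out each quadrant in turn gave depth ratios of 1.35 to 1.97, edge shares of 44.1% to 53.5%, neighbour shares of 42.4% to 70.5%, 272 to 505 higher and 607 to 1988 lower genes, 15 to 16 lists above 0, muscle at -1.50 to -0.94, macrophage at 0.31 to 0.63, MHC class II at 0.35 to 0.65, ribosome at 0.17 to 0.34 and mitochondrial ratios of 1.53 to 2.84. Without the upper left quadrant, which gave 272 and 607 genes, red blood cell (range over the 4 fits -0.75 to 2.08) and nuclear-retained RNA (-0.07 to 0.04) reversed, and without the lower right quadrant glycolysis (-0.05 to 0.04). The following were chosen after seeing the data. The upper left quadrant alone gave a depth ratio of 1.56, 209 higher genes, muscle -0.83, macrophage 0.29 and MHC class II 0.01, and reversed glycolysis (0.07), smooth muscle and pericyte (0.03) and interferon response (0.03). Against spots of like depth the depth ratio was 1.12, with 171 higher and 908 lower genes, muscle -0.39, macrophage 0.34, MHC class II 0.27 and ribosome 0.21, and glycolysis (0.09), keratinocyte (0.16) and nuclear-retained RNA (0.11) reversed. The largest patch alone had macrophage at 0.66 and MHC class II at 0.65, and members outside it a depth ratio of 1.48, 1038 lower genes, macrophage 0.36, MHC class II 0.28 and ribosome 0.30. Except where an alternative sets a value by construction, the cause of these shifts was not tested. The edge share in the interior and the depth when thinned are set by construction and are not given. No paired analysis was possible because each group had 1 section. Depth limits sparse genes: at the 8 members and 1 member of the lower quadrants, a gene of 20 CPM is often at 0 UMIs.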

Other observations

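Several gene groups belonged to no comparison above. Monocyte genes had 947 CPM in control members and 829 in other spots, a log2 ratio of 0.19 (0.14 to 0.25), with 0 of 5 tested genes higher and 1 lower. Fn1, a fibronectin gene that the fibroblast list also holds, gave 2502 of the 3383 UMIs in members and 11510 of the 16013 in other spots at a ratio of 1.18, while Ly6c2 was lower at 0.676 (0.521 to 0.867). Endothelial, neutrophil and dendritic cell lists had intervals across 0, with log2 ratios of 0.02, -0.07 and -0.06. Among metabolic lists, mitochondrial import and protein quality and fatty acid oxidation both had log2 ratios of -0.10, glycolysis -0.04 and sterol synthesis -0.07, and all 4 turned positive with TMM factors. In the rIL7 section, glycolysis genes had 9784 CPM in the chosen spots and 13027 in other spots, a log2 ratio of -0.41 (-0.43 to -0.39), and the CT26 markers one of -0.48 (-0.55 to -0.41). Adipocyte genes there had 553 and 122 CPM, and endothelial genes 346 and 146 CPM.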
